A study of Rattus norvegicus with 10 samples.

Results

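The comparison of mechanical stimulation with placebo at 1 h rested on 4 of the 10 small RNA libraries of the series, chosen by their labelled arm and time and by no measured value. MS_E was represented by 2 libraries taken 1 h after stimulation and PLA_E by 2 taken 1 h after placebo. All the animals were female Wistar rats with collagen-induced arthritis (CIA), a joint disease raised by immunisation with bovine collagen in adjuvant. In MS_E a short steel needle had been inserted and twirled on both sides of the body, at points of the lower back and of the leg, whereas in PLA_E sterile saline had been injected into the peritoneum. The arms therefore differed in the site of the intervention as well as in its kind, and within the comparison the needle, the twirling and the injection cannot be told apart. Shaving was common to all animals, and ether was the anaesthetic for blood sampling in both arms. The tissue was excised around the stimulated points at sacrifice. The labels name it muscle from below the epidermis, the methods name subcutaneous tissue with its muscle, and the design text of the series also speaks of blood. No source states whether a library came from 1 animal or from a pool, so that the p-values below measure only the spread between libraries. Untreated animals with CIA (CIA_B) and the same arms at 34 days (MS_A, PLA_A), each with 2 libraries, entered the fit to estimate that spread, and their levels are given beside those at 1 h.

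A miRNA is a short RNA cut from a hairpin precursor and held by an Argonaute protein, which it guides to messages that are then translated less or degraded. Pairing depends mostly on the seed, bases 2 to 8 of the mature sequence, so that miRNAs with 1 seed tend to share targets. Many miRNAs are typical of a cell type, such as miR-1, miR-133 and miR-206 of striated muscle, miR-208b and miR-499 of slow muscle fibres, whose genes lie within myosin heavy chain genes, and the miR-200 family of epithelia. Others are made from shared transcripts, among them the large imprinted Dlk1-Dio3 cluster and the miR-17/92 cluster. In the bulk tissue used here fewer cells of a type and less RNA per cell cannot be told apart.

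Of the 723 mature miRNAs in the files, 359 were tested, those at 1 or more cpm (read counts scaled to a common library total) in 5 or more of the 10 libraries, and 364 were left out. The comparison turned on 14 miRNAs that passed both thresholds used by the study, a change of over 2-fold and an unadjusted p under 0.05. A mature sequence was matched for 13 of these 14 and for 324 of the 359 tested, in the RefSeq annotation of the rat assembly GRCr8. Those that carry the results are given from 5′ to 3′ with the seed in capitals, together with the tested miRNAs of the same seed and the other arm of the miR-499 hairpin.
miR-34c-5p: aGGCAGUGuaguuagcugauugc
miR-449a-5p: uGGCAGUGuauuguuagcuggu
miR-34a-5p: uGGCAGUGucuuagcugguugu
miR-19a-3p: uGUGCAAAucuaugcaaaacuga
miR-19b-3p: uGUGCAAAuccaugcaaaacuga
miR-101b-3p: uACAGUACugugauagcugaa
miR-101a-3p: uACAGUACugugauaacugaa
miR-539-3p: cAUACAAGgguaauuucuuuuc
miR-381-3p: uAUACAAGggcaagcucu
miR-376c-3p: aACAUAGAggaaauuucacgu
miR-10b-3p: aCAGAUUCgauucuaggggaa
miR-675-3p: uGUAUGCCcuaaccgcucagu
miR-141-3p: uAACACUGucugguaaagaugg
miR-184: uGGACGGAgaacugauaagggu
miR-499-5p: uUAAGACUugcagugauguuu
miR-499-3p: aACAUCACagcaagucugugcu
The remaining differential miRNAs were miR-6329 and miR-200b-3p. Within the sets, miR-19a-3p and miR-19b-3p differ at 1 base of 23 (U11C, the base of miR-19a-3p first, counted from the 5′ end), and miR-101b-3p and miR-101a-3p at 1 base of 21 (G16A). Reads with a mismatch could be assigned to either member of these pairs, and their separate counts are uncertain to that extent.

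The libraries held 8926170 and 5144552 miRNA reads in MS_E replicates 1 and 2, and 5277306 and 3725355 in PLA_E replicates 1 and 2. Levels are cpm scaled by the TMM factors of edgeR, which were between 0.727 and 1.41. A count of 3 then corresponded to 0.402 to 0.828 cpm in the 4 libraries, a limit that covers counting error only. The 5 most abundant miRNAs took 55.6% to 74.7% of the reads of a library, and miR-10b-5p alone took 51.8% in MS_E replicate 1 against 10.0% to 17.8% in the other 3. Markers of the labelled tissue were present, and the 6 tested arms of the miR-1, miR-133 and miR-206 hairpins had a summed level of 84134 and 215086 cpm in MS_E and of 182653 and 135171 cpm in PLA_E. miR-1-3p divided each arm into a library of low and one of high level. It stood at 11907 and 100684 cpm in MS_E replicates 1 and 2, and at 90905 and 11316 cpm in PLA_E replicates 1 and 2. Each arm thus held 1 library of either kind, with the replicate numbers crossed.

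MS_E replicate 1 also stood apart from the other 9 libraries in miRNAs that were left out of the test because they reached 1 cpm in fewer than 5 libraries. In it 12 such miRNAs had 20 or more counts with at most 3 in each of the other 9, whereas each of the other libraries had 0 of this kind. miR-871-3p had 6414 counts (990 cpm) in MS_E replicate 1, against 2 in replicate 2 and 1 and 0 in PLA_E. miR-202-5p had 4976 counts (768 cpm) there and 0 in the other 3 libraries of the comparison. miR-202 is known from the gonads, and miR-871 belongs to a group of X-linked miRNAs known from the testis. Of the 27 mature miRNAs of that group in the files, 11 had more than 3 counts in MS_E replicate 1, among them miR-463-5p with 104 and miR-883-3p with 85, and their summed level was 1047 cpm against 5.78 cpm in MS_E replicate 2 and 2.14 and 1.66 cpm in PLA_E. The labels give female animals and muscle tissue for this library as for the others. These miRNAs were chosen after their values were seen, and their part in the results below was not tested, so that values without MS_E replicate 1 are given where results rest on it.

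Libraries of the same arm lay as far apart as libraries of different arms. Over the 359 miRNAs the median absolute difference in log2 cpm was 0.77 between the MS_E libraries and 0.75 between the PLA_E libraries. Between arms it was 0.61 for the pair low in miR-1-3p, 0.46 for the pair high in miR-1-3p, and 0.66 and 0.77 for the other combinations. The nearest libraries of the 4 were therefore MS_E replicate 2 and PLA_E replicate 1, from different arms, with 79 miRNAs more than 2-fold apart, against 136 within MS_E and 127 within PLA_E.

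Between the arms, 14 of the 359 miRNAs were differential, which is 3.9% of those tested. In MS_E 11 of them were higher (3.06%) and 3 lower (0.836%). After Benjamini-Hochberg adjustment over the 359, the quasi-likelihood p of edgeR was under 0.05 for 0 of them, the smallest being 0.832, and the 14 were also all those at an unadjusted p under 0.05. DESeq2 gave 2 miRNAs an adjusted p under 0.05, miR-449a-5p and miR-141-3p. Scaled by library size only, the split was 5 higher and 7 lower, and the median log2 fold change of all miRNAs was -0.22 in place of 0.03, a shift of -0.25. Both MS_E libraries lay on the same side of both PLA_E libraries for 101 miRNAs (28.1%), above for 59 (16.4%) and below for 42 (11.7%). Of the 14 differential miRNAs 10 were without overlap, 7 above and 3 below.

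**Figure D1:**
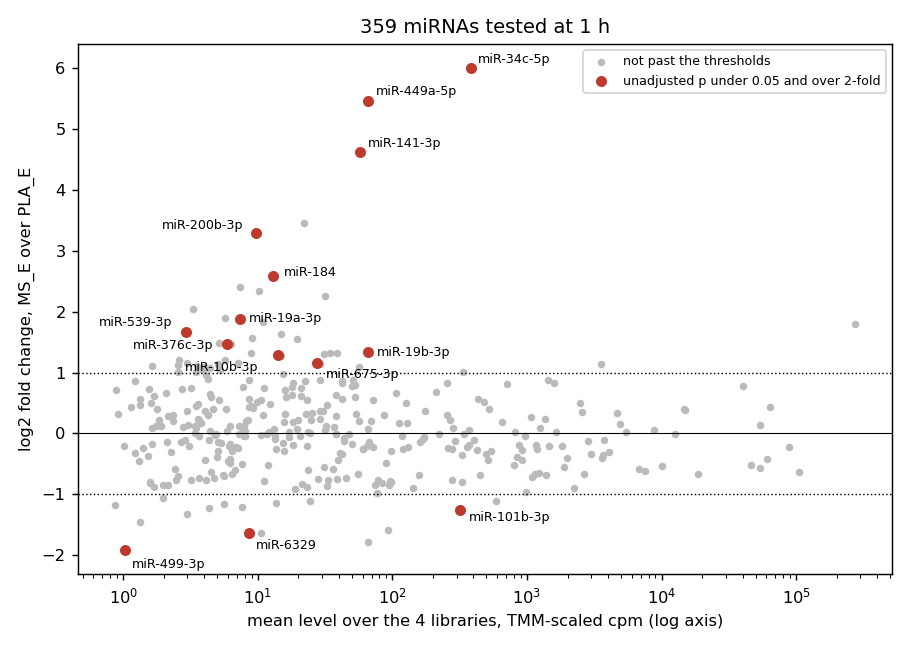
Log2 fold change of MS_E over PLA_E (vertical axis) against the mean level over the 4 libraries in TMM-scaled cpm (horizontal log axis) for the 359 miRNAs tested. Red points are the 14 differential miRNAs and dotted lines mark 2-fold, and the most abundant miRNA, miR-10b-5p at the far right, stands at 1.80 without passing the threshold on p.

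**Figure D2:**
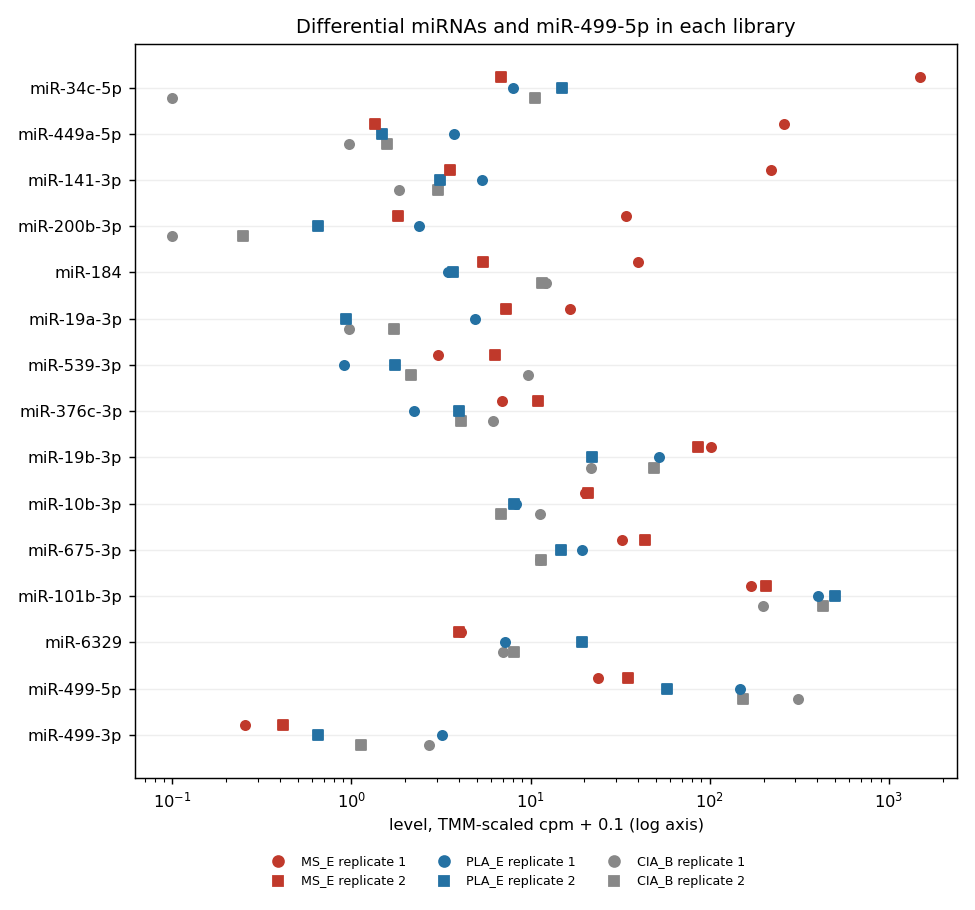
Level of each differential miRNA and of miR-499-5p in each library, as TMM-scaled cpm plus 0.1 on a log axis, with MS_E in red, PLA_E in blue and CIA_B in grey, circles for replicate 1 and squares for replicate 2. At the top, miR-34c-5p, miR-449a-5p and miR-141-3p stand apart in MS_E replicate 1 alone, whereas the arms are separate for miR-10b-3p, miR-675-3p and miR-101b-3p.

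The closest replicates were those of miR-10b-3p, the minor arm of a hairpin in the HoxD cluster, whose genes set position along the body. Its level was 20.1 and 20.8 cpm in MS_E versus 8.18 and 8.001 cpm in PLA_E, with 11.3 and 6.77 cpm in CIA_B. Both stimulated libraries stood above the other 4 named here, and those of PLA_E lay within the range of CIA_B. The log2 fold change between the arms was 1.30 (standard error 0.564, unadjusted p = 0.042 in edgeR), and it was from 1.26 to 1.31 whichever of the 4 libraries was omitted. With 1 library fewer, however, it passed the threshold on p in 0 of the 4 fits (edgeR, p from 0.073 to 0.118), and with library size as the only scaling it was 1.03 (unadjusted p = 0.162 in edgeR). The major arm, miR-10b-5p, was at 713640 and 143118 cpm in MS_E versus 70932 and 174474 cpm in PLA_E. These levels overlapped, since MS_E replicate 2 was below PLA_E replicate 2, and the log2 fold change of 1.80 had a standard error of 1.02. It was 0.17 without MS_E replicate 1 and 2.54 without MS_E replicate 2, where it passed both thresholds. Within the pairs of like miR-1-3p level the log2 level of miR-10b-5p was higher in MS_E by 2.03 and 1.01.

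Also separate were the levels of miR-675-3p, a product of H19, the imprinted long RNA that is abundant in fetal and regenerating muscle. It was at 32.4 and 43.6 cpm in MS_E, at 19.2 and 14.6 cpm in PLA_E, and at 11.3 cpm in both libraries of CIA_B. All 4 treated libraries were above the untreated ones, and those of MS_E were the highest. Between the arms the log2 fold change was 1.15 (standard error 0.447, unadjusted p = 0.028 in edgeR), from 0.92 to 1.35 with each library left out, past both thresholds in 1 of those 4 fits. The other arm, miR-675-5p, had the same order with few counts, 4.32 and 6.40 cpm in MS_E versus 1.88 and 3.04 cpm in PLA_E, a log2 fold change of 1.04 that did not pass (unadjusted p = 0.095 in edgeR). miR-483, from the neighbouring Igf2 gene, had log2 fold changes of -0.09 and -0.18 for its arms, with overlapping libraries. At 34 days miR-675-3p was at 8.78 and 10.8 cpm in MS_A against 16.4 and 12.9 cpm in PLA_A, so that the stimulated libraries were then the lower ones. The difference between the times had an unadjusted p of 0.022 in the interaction term of edgeR (0.035 to 0.085 with a library of 34 days left out), and an adjusted p under 0.05 was not reached.

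miR-10b-3p and miR-675-3p were also the only differential miRNAs that were more than 2-fold higher in MS_E within both pairs of like miR-1-3p level. In the low pair their log2 differences were 1.29 and 1.13, in the high pair 1.31 and 1.17. In all, 10 of the 359 miRNAs (2.79%) were more than 2-fold apart in 1 direction in both pairs. miR-10b-5p and miR-499-5p were others of the 10.

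The largest group fixed by position, the Dlk1-Dio3 cluster, was placed mostly above 0. It is a long row of miRNA genes expressed from the maternal chromosome, active in development and in muscle stem cells. Of its 83 mature miRNAs in the files 55 were tested. Of these 46 had a log2 fold change above 0, against 52.1% of all miRNAs tested, and their median was 0.67, against 0.03. Both MS_E libraries were above both of PLA_E for 20 of the 55 and below for 3, where the shares over all miRNAs were 16.4% and 11.7%. Differential were 2 of the 55, miR-376c-3p and miR-539-3p, where the share over all miRNAs was 3.9%.

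miR-376c-3p, one of the miR-376 hairpins that lie side by side in the cluster, was at 6.79 and 10.9 cpm in MS_E versus 2.14 and 3.86 cpm in PLA_E. The levels in CIA_B, 6.06 and 3.97 cpm, lay between those of the arms. The log2 fold change between the arms was 1.47 (standard error 0.684, unadjusted p = 0.045 in edgeR). miR-539-3p had 2.93 and 6.25 cpm in MS_E and 0.804 and 1.66 cpm in PLA_E, which rests on 19 and 40 against 6 and 6 counts. Its libraries did not overlap between the arms, but those of CIA_B, at 9.52 and 2.06 cpm, reached above them. This gave a log2 fold change of 1.67 (standard error 0.848, unadjusted p = 0.046 in edgeR). miR-381-3p, the other tested miRNA with the seed of miR-539-3p and itself of the cluster, was at 33.5 and 17.2 cpm against 8.58 and 24.3 cpm, with overlap and a log2 fold change of 0.62.

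Another 11 members of the cluster were more than 2-fold apart between the mean levels of the arms without overlap but not past the threshold on p. Except for miR-540-3p, these were higher in MS_E, with log2 fold changes from 0.96 in miR-299a-3p to 1.48 in miR-329-3p. miR-379-5p, the first hairpin of the largest group in the cluster, was at 80.3 and 74.8 cpm in MS_E versus 39.1 and 33.4 cpm in PLA_E, a log2 fold change of 1.09 (unadjusted p = 0.145 in edgeR). Its CIA_B libraries, at 71.0 and 19.3 cpm, spanned the levels of both arms. miR-540-3p went the other way, with 2.16 and 0.937 cpm against 4.42 and 4.41 cpm and a log2 fold change of -1.32 (unadjusted p = 0.062 in edgeR). miR-127-3p, the most abundant member, was at 3579 and 2258 cpm against 1167 and 2948 cpm, with overlap, and at 2543 and 2408 cpm in CIA_B.

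The summed level of the tested members was 5839 and 5976 cpm in MS_E, 2900 and 5336 cpm in PLA_E, and 5692 and 4690 cpm in CIA_B. It was thus PLA_E replicate 1 that stood apart, and the stimulated libraries were near the untreated ones. Within the pairs of like miR-1-3p level, the median log2 difference of the members was 0.12 in the low pair and 1.22 in the high pair, which includes that library. Without PLA_E replicate 1 the median log2 fold change was 0.44 with 40 of 55 members above 0, where all miRNAs had a median of 0.19 and 57.7% above 0. Without MS_E replicate 2 it was 0.45 with 37 of 55 above 0, where all had -0.10 and 45.7%. Library size as the only scaling gave 0.44 with 44 of 55 above 0, where the median of all miRNAs was -0.22. In the separate libraries of 34 days, 44 of the 55 were again above 0 between MS_A and PLA_A, with a median of 0.35 against -0.02 over all miRNAs. Without MS_A replicate 2, however, that median was -0.17 with 19 of 55 above 0, against -0.13 and 43.2% over all. Above 0 at both times were 38 of the 55, where it was 110 of all 359.

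**Figure D3:**
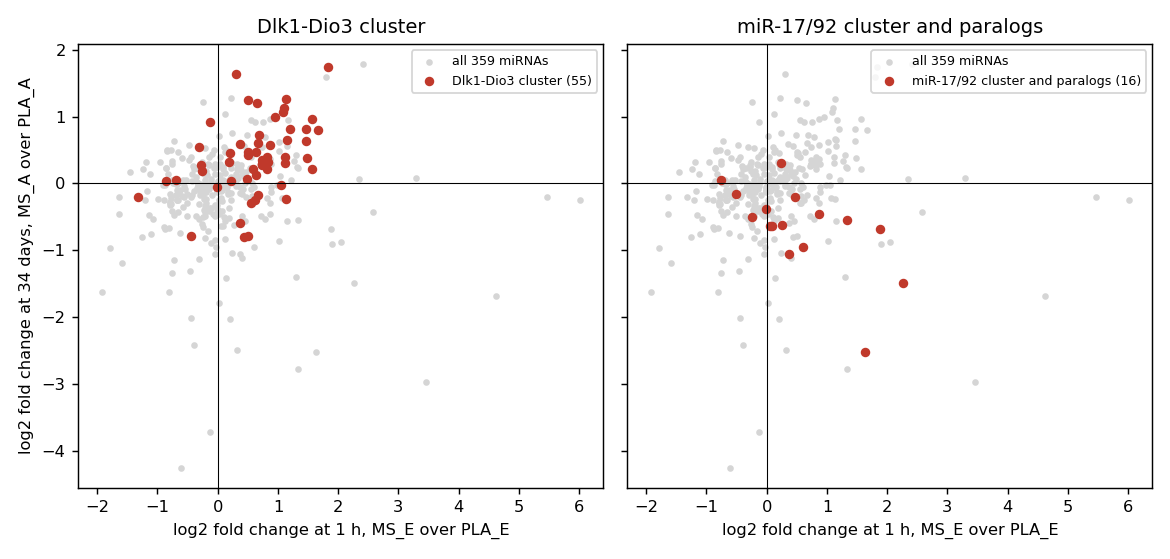
Log2 fold change of MS_A over PLA_A at 34 days (vertical axis) against that of MS_E over PLA_E at 1 h (horizontal axis), with each miRNA tested in grey and, in red, the 55 of the Dlk1-Dio3 cluster at the left and the 16 of the miR-17/92 cluster and its paralogs at the right. Of the Dlk1-Dio3 members 38 lie above 0 at both times, and of the miR-17/92 members 11 lie above 0 at 1 h and below 0 at 34 days.

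The miR-17/92 cluster and its paralogs are induced by MYC and E2F in dividing cells. Of the 16 mature miRNAs tested from this group 12 were above 0 at 1 h, against 52.1% of all miRNAs tested, with a median log2 fold change of 0.32 against 0.03. Both MS_E libraries were above both of PLA_E for 3 of the 16 and below for 1, where the shares over all miRNAs were 16.4% and 11.7%. Differential were 2 of the 16, against 3.9% of all. Both carry the miR-19 seed. miR-19a-3p was at 16.5 and 7.18 cpm in MS_E, 4.83 and 0.828 cpm in PLA_E, and 0.866 and 1.62 cpm in CIA_B. miR-19b-3p was at 102 and 85.7 cpm in MS_E, 51.7 and 22.1 cpm in PLA_E, and 21.6 and 49.0 cpm in CIA_B. For both the MS_E libraries were above all 4 of the others and PLA_E replicate 1 was above replicate 2. The log2 fold changes between the arms were 1.89 (standard error 0.784, unadjusted p = 0.030 in edgeR) for miR-19a-3p and 1.33 (standard error 0.581, unadjusted p = 0.046 in edgeR) for miR-19b-3p. Without PLA_E replicate 2 miR-19b-3p was below 2-fold, at 0.86, and miR-19a-3p was at 1.27. Without PLA_E replicate 1 miR-19a-3p was at 3.33.

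Members of the group with other seeds were not differential. miR-92a-3p, its most abundant member, was at 1774 and 577 cpm in MS_E versus 782 and 1178 cpm in PLA_E, with overlap and a log2 fold change of 0.26. The 4 tested miRNAs with the miR-17 seed, which includes miR-20a-5p, had a median of 0.26 with 3 above 0. Without MS_E replicate 1 the median of the 16 was 0.08, and with library size as the only scaling it was 0.08 with 9 of 16 above 0. At 34 days 2 of the 16 were above 0 between MS_A and PLA_A, against 47.4% of all miRNAs, with a median of -0.58 against -0.02. Both MS_A libraries were then below both of PLA_A for 8 of the 16, against 12.5% of all. Leukocyte miRNAs were below 0 at this time as well. Of the 4 tested of the lymphoid and pan-leukocyte list 3 were differential and lower in MS_A, where 1.95% of all miRNAs were differential. Above 0 were 0 of the 4, against 47.4% of all, and the median was -3.06. Their summed level was 752 and 1741 cpm in MS_A against 12758 and 1113 cpm in PLA_A. PLA_A replicate 1 thus stood apart, and without it the medians were -0.30 with 5 of 16 above 0 for the miR-17/92 group and -0.51 for the leukocyte list. The part of leukocytes in the lower miR-17/92 values at 34 days was not tested. At 34 days miR-19a-3p and miR-19b-3p were at -0.69 and -0.55, with unadjusted p of 0.033 and 0.045 in the interaction term of edgeR, which with a library of 34 days left out were 0.043 to 0.091 and 0.056 to 0.144.

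Among the hairpins of the miR-15/16 seed family, which holds back the cell cycle, no arm was differential. Of the 8 mature arms tested 6 were above 0, against 52.1% of all, with a median of 0.29 against 0.03. The seed itself is carried by 5 of the 8, of which 4 were above 0, with a median of 0.30. With library size as the only scaling the median of the 8 was 0.05 with 5 of 8 above 0, where the median of all was -0.22. Both MS_E libraries were above both of PLA_E for 4 of the 8, against 16.4% of all, and at 34 days the median was -0.11 with 3 of 8 above 0, or 0.19 with 5 of 8 without PLA_A replicate 1. miR-15b-5p was at 61.6 and 27.01 cpm in MS_E versus 22.2 and 13.2 cpm in PLA_E, with 25.1 and 16.2 cpm in CIA_B. Only MS_E replicate 1 was far above the untreated libraries. The log2 fold change was 1.30 (standard error 0.776, unadjusted p = 0.124 in edgeR), and its partner arm miR-15b-3p was at 1.02. Without MS_E replicate 1 these were 0.52 and 0.58. miR-16-5p, by far the largest member, was at 2831 and 7476 cpm against 5792 and 3491 cpm, with overlap.

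Lower in MS_E was miR-101b-3p, of a family known to repress the histone methyltransferase Ezh2. It was at 169 and 206 cpm in MS_E, at 402 and 498 cpm in PLA_E, and at 197 and 431 cpm in CIA_B. The arms did not overlap, and the untreated libraries spanned from the level of the one to that of the other. The log2 fold change was -1.26 (standard error 0.525, unadjusted p = 0.039 in edgeR), from -1.41 to -1.10 with each library left out, but past the threshold on p in 0 of those 4 fits (edgeR, p from 0.060 to 0.150). miR-101a-3p, with the same seed, was at 1390 and 1757 cpm in MS_E versus 3092 and 2775 cpm in PLA_E, also without overlap, at a log2 fold change of -0.90 that did not pass (unadjusted p = 0.124 in edgeR). At 34 days both were below 0, at -0.81 for miR-101b-3p, which was -0.12 without PLA_A replicate 2, and -0.65 for miR-101a-3p.

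Of the 3 tested miRNAs of slow-twitch fibres 1 was differential, miR-499-3p, where the share over all miRNAs was 3.9%. Both MS_E libraries were below both of PLA_E for 2 of the 3, against 11.7% of all. miR-499-5p, which the study lists for this comparison, was at 23.8 and 34.8 cpm in MS_E and at 147 and 57.4 cpm in PLA_E. Its levels in CIA_B, 313 and 153 cpm, were above all 4 treated libraries. The arms did not overlap, and the log2 fold change of -1.79 (standard error 0.822, unadjusted p = 0.055 in edgeR) was past 2-fold but not past the threshold on p. Within the pairs of like miR-1-3p level the log2 difference was -1.26 and -2.07. The other arm, miR-499-3p, was differential on few reads, 1 and 2 counts in MS_E against 23 and 2 in PLA_E. With the counts of each arm pooled and the read totals scaled by the TMM factors, its level was 9.68 times higher in PLA_E. The 95% interval of this ratio, from 2.95 to 50.1, covers counting error only. Most of the counts came from PLA_E replicate 1, and the fitted log2 fold change of -1.92 was -0.60 without it. miR-208b-3p, of the slow myosin gene Myh7, was at 32.7 and 59.6 cpm in MS_E versus 222 and 55.7 cpm in PLA_E, where MS_E replicate 2 and PLA_E replicate 2 overlapped, and at 513 and 433 cpm in CIA_B. Summed over the 3 tested, the level was 56.7 and 94.8 cpm in MS_E, 372 and 114 cpm in PLA_E, and 829 and 586 cpm in CIA_B. Their median log2 fold change was -1.79, and without PLA_E replicate 1 it was -0.60. At 34 days it was -1.19, with overlapping libraries for each of the 3, and 0.39 without PLA_A replicate 1. The 6 tested miRNAs of muscle in general, fast and slow, had a median of -0.09 and overlapped throughout. That median was -1.44 without MS_E replicate 2 and 0.84 without PLA_E replicate 1, so that its sign rested on single libraries. Whether the share of slow fibres in the excised pieces differed was not tested.

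miR-6329, a rat miRNA without a role known well enough to state, was at 4.01 and 3.90 cpm in MS_E, 7.10 and 19.3 cpm in PLA_E, and 6.92 and 7.94 cpm in CIA_B. Only PLA_E replicate 2 was above the untreated level. Between the arms its log2 fold change was -1.64 (standard error 0.636, unadjusted p = 0.024 in edgeR), and -0.79 without that library.

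The 4 largest fold changes among the differential miRNAs were carried by 1 library. They belonged to 2 groups, the miR-34/449 seed family, which is known from multiciliated epithelium and from male germ cells, and the miR-200 family, which maintains the epithelial state by repressing Zeb1 and Zeb2. miR-34c-5p had 9693 counts in MS_E replicate 1 and 43 in replicate 2, against 59 and 54 in PLA_E. On the cpm scale this was 1497 and 6.71 against 7.91 and 14.9, so that MS_E replicate 2 was the lowest of the 4. miR-449a-5p was at 258 and 1.25 cpm against 3.62 and 1.38 cpm, and again the second stimulated library was the lowest. The third tested miRNA of this seed, miR-34a-5p, which p53 induces in many cell types, had no such excess, with 42.3 and 29.7 cpm against 27.6 and 62.4 cpm.

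miR-141-3p was at 220 and 3.44 cpm in MS_E versus 5.23 and 3.04 cpm in PLA_E, and miR-200b-3p at 34.1 and 1.72 cpm against 2.28 and 0.552 cpm. In both the arms overlapped, and MS_E replicate 1 alone was above PLA_E replicate 1. Of the 4 tested members of the miR-200 family, miR-200a-3p was without overlap, at 27.9 and 7.03 cpm against 5.23 and 0.828 cpm, with a log2 fold change of 2.35 (unadjusted p = 0.058 in edgeR). Leaving out MS_E replicate 1 brought miR-200a-3p to 0.999 and the median of the 4 from 2.82 to 0.38. The fitted log2 fold changes of the 4 differential ones were 6.01 for miR-34c-5p, 5.47 for miR-449a-5p, 4.62 for miR-141-3p and 3.30 for miR-200b-3p. Without MS_E replicate 1 they were -0.78, -0.91, -0.32 and 0.10, so that 3 changed sign. Omitting MS_E replicate 2 brought 5 miRNAs to an adjusted p under 0.05 in edgeR, these 4 and miR-184.

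miR-184, abundant in the cornea and found in keratinocytes, was at 39.8 and 5.31 cpm in MS_E versus 3.35 and 3.59 cpm in PLA_E. The arms were without overlap, but MS_E replicate 2 was below both CIA_B libraries, at 12.1 and 11.5 cpm. Its log2 fold change of 2.58 (standard error 0.864, unadjusted p = 0.012 in edgeR) was 0.51 without MS_E replicate 1. Of the epidermal list, miR-205, the most abundant member, was at 69.2 and 59.0 cpm in MS_E versus 61.4 and 22.3 cpm in PLA_E, with overlap and a log2 fold change of 0.61.

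Epithelial lists as a whole had the following summed levels. The miR-200 family, of which 4 of 9 arms were tested, held 297 and 16.1 cpm in MS_E, 16.9 and 4.41 cpm in PLA_E, and 5.19 and 3.97 cpm in CIA_B. The ciliated list, of which 2 of 8 were tested, held 1755 and 7.96 cpm in MS_E and 11.5 and 16.3 cpm in PLA_E. The epidermal list, of which 4 of 6 were tested, held 182 and 107 cpm in MS_E and 98.5 and 58.2 cpm in PLA_E. MS_E replicate 1 was the highest in each, by far more for the first pair of lists than for the epidermal list, and it was also the library with the counts of miR-871-3p and miR-202-5p. Of the erythroid list, miR-451-5p, which marks red blood cells, was highest there, at 79.8 cpm against 14.3 to 24.8 cpm in the other 3, and its log2 fold change of 1.33 became -0.05 when this library was omitted. The other tested members, miR-144-3p and miR-144-5p, were at -0.76 and -0.05, with overlap, and the median of the 3 was -0.05. The part of other cell types in this library was not tested.

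**Figure D4:**
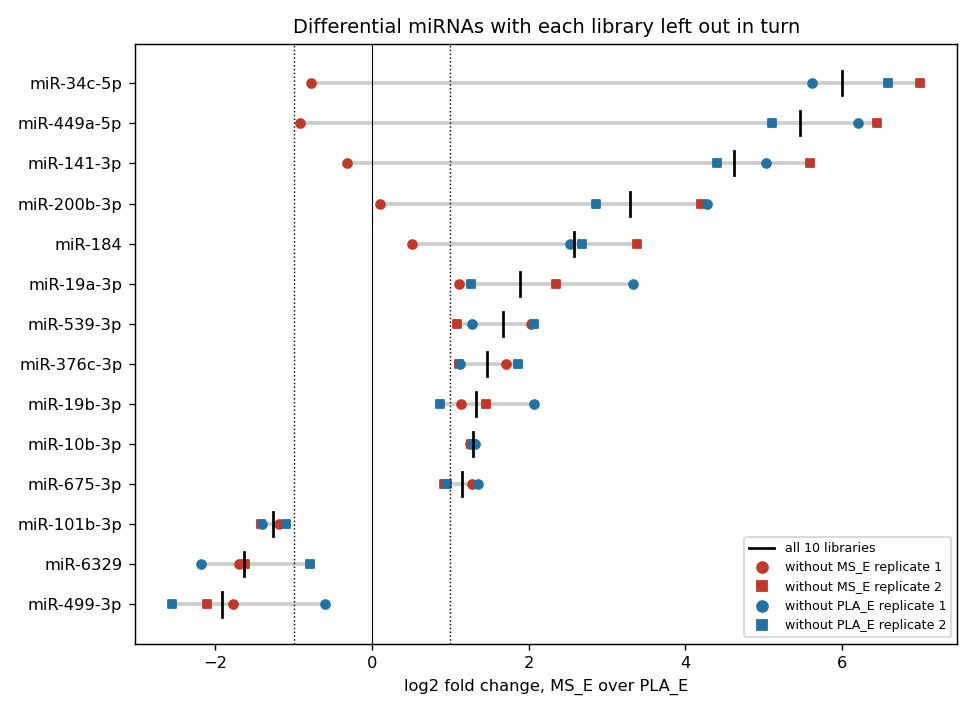
Log2 fold change of MS_E over PLA_E of the 14 differential miRNAs from all 10 libraries (black bars) and with 1 of the 4 libraries left out in turn (red for MS_E, blue for PLA_E, circles for replicate 1 and squares for replicate 2), with dotted lines at 2-fold. The upper 5 miRNAs drop below 2-fold without MS_E replicate 1, whereas miR-10b-3p stays between 1.26 and 1.31.

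Whichever of the 4 libraries was omitted, 5 of the 14 kept more than 2-fold in the same direction, namely miR-10b-3p, miR-19a-3p, miR-101b-3p, miR-376c-3p and miR-539-3p. Of these, miR-10b-3p, miR-101b-3p and miR-376c-3p passed the threshold on p in 0 of the 4 fits. The other 9 dropped below 2-fold or changed sign at least once. Of the 14, 2 passed both thresholds without MS_E replicate 1, 6 without MS_E replicate 2, 5 without PLA_E replicate 1 and 2 without PLA_E replicate 2. With limma-voom, the method of the study, 7 of the 14 passed on all 10 libraries. With the miR-1-3p division as a term in the fit, or with DESeq2, all 14 passed.

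The 14 were not those of 34 days. At that time 7 of the 359 miRNAs (1.95%) were differential between MS_A and PLA_A, and 0 of the 14 were among them. Of the 14, 7 had the same direction as at 1 h and 7 the opposite one, and the widest log2 fold change was that of miR-141-3p, at -1.69. In edgeR's interaction term of arm and time 0 of the 359 reached an adjusted p under 0.05 (smallest 0.993) and 12 had an unadjusted p under 0.05 (3.34%). Of these 12, 7 were among the 14, which were chosen on the 1 h part of that term.

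Lists of other cell types held no differential miRNA. Of the lymphoid and pan-leukocyte list, all 4 tested overlapped between the arms, and miR-150-5p, of mature lymphocytes, was at 256 and 1381 cpm in MS_E versus 1156 and 456 cpm in PLA_E. Of the 7 tested myeloid and inflammation-induced miRNAs 4 were above 0, with a median of 0.24, which was -0.37 with library size as the only scaling and -0.42 without MS_E replicate 1. Without overlap, 2 of the 7 were at higher levels in MS_E, against 16.4% of all miRNAs. miR-146a-5p, which NF-kappaB induces, was at 2815 and 1271 cpm in MS_E versus 1063 and 1246 cpm in PLA_E, a log2 fold change of 0.82 (unadjusted p = 0.155 in edgeR). miR-223-3p, of neutrophils and other myeloid cells, was at 64.7 and 70.1 cpm versus 52.0 and 25.1 cpm, a log2 fold change of 0.80 (unadjusted p = 0.182 in edgeR). miR-146b-5p had a log2 fold change of 1.14 with overlap. miR-21-5p, induced in injured and inflamed tissue, was at 4167 and 3128 cpm against 4974 and 4061 cpm, with overlap and a log2 fold change of -0.31.

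Members of the endothelial, smooth muscle and fibroblast lists lay on both sides of 0. miR-126a-5p, the most abundant of the endothelial list, was at 3501 and 8285 cpm in MS_E versus 7782 and 10360 cpm in PLA_E, with overlap. All 5 tested members of that list overlapped, 3 were above 0, with log2 fold changes from -0.62 in miR-126a-5p to 1.01 in miR-221-5p, and the median of 0.32 was -0.19 without MS_E replicate 1. miR-143-3p of smooth muscle was at 77626 and 26338 cpm against 38192 and 101310 cpm. The 4 tested of its list overlapped, with 1 above 0, miR-145-5p at 1.02, and a median of -0.25 that was 0.35 without PLA_E replicate 2. The fibroblast miRNA miR-199a-3p was lower without overlap, at 1795 and 1231 cpm against 2324 and 2136 cpm, with a log2 fold change of -0.56 (unadjusted p = 0.286 in edgeR). The other tested members of its list, miR-199a-5p and miR-214-3p, were at 0.08 and 0.20 with overlap, and the median of the 3 was 0.08, or -0.92 without MS_E replicate 1.

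Some families had a median below 0, again with no differential member, where 52.1% of all miRNAs were above 0 and the median of all was 0.03. Of the miR-23/27/24 clusters, known from endothelium and muscle, 2 of 9 tested were above 0, with a median of -0.60 that was -0.14 without PLA_E replicate 1. In the miR-181 family, which acts in lymphocytes and in muscle differentiation, 0 of 8 were above 0, with a median of -0.46 that was 0.15 without PLA_E replicate 2. Of the 6 tested arms of the miR-29 family, which represses collagens, 3 were above 0. The median of the 6, -0.31, was 0.69 with 4 above 0 when PLA_E replicate 1 was left out. The seed of the family is carried by 3 of the 6, of which 0 were above 0. Their median was -0.73, with log2 fold changes from -0.80 to -0.66. miR-29a-3p was at 663 and 1245 cpm in MS_E versus 1606 and 1402 cpm in PLA_E, without overlap, at a log2 fold change of -0.66 (unadjusted p = 0.169 in edgeR). Of the 18 tested arms of the let-7 hairpins, whose main arms are high in differentiated cells, 7 were above 0. Their median of -0.06 was 0.08 with 10 above 0 without PLA_E replicate 1. Of the 8 that carry the let-7 seed 1 was above 0, with a median of -0.21. Among the 18, let-7a-1-3p and let-7c-2-3p had the same counts in the 4 libraries compared. miR-210-3p, the common hypoxia miRNA, was at 18.99 and 13.4 cpm against 26.5 and 33.7 cpm, without overlap and with a log2 fold change of -0.88 (unadjusted p = 0.086 in edgeR). The CIA_B levels of miR-210-3p, 28.6 and 26.0 cpm, were near those of PLA_E.

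**Figure D5:**
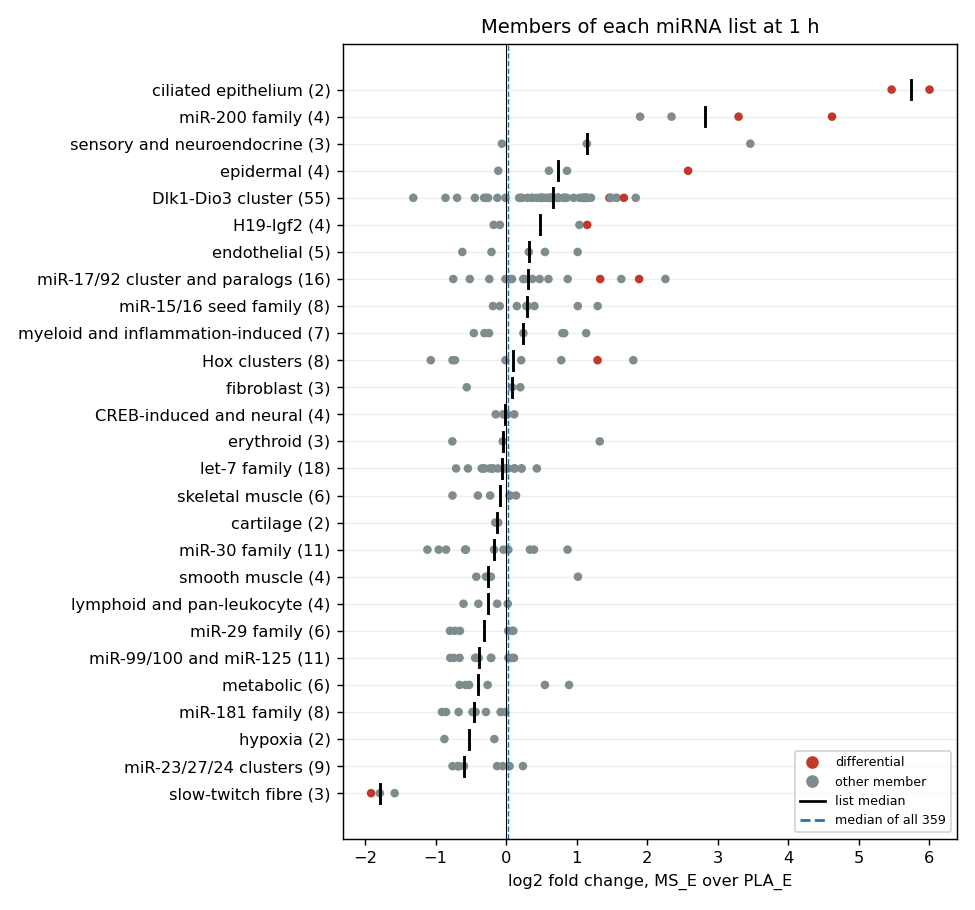
Log2 fold change of MS_E over PLA_E of each tested member of the 27 lists, with the number tested in parentheses, the median of a list as a black bar, differential members in red and the median of all 359 miRNAs as a dashed line. The Dlk1-Dio3 members centre on 0.67, the slow-twitch members lie together at -1.79, and the ciliated and miR-200 lists at the top rest on MS_E replicate 1.

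Of the 5 most abundant miRNAs, miR-10b-5p and miR-143-3p are given above, and none of the 5 was differential. miR-22-3p, which is strong in heart and skeletal muscle, was at 58900 and 104213 cpm in MS_E versus 104715 and 149382 cpm in PLA_E. This was without overlap, though MS_E replicate 2 and PLA_E replicate 1 were almost equal, and the log2 fold change of -0.64 had a standard error of 0.528. miR-26a-5p was without overlap in the other direction, at 87497 and 58840 cpm against 56466 and 52230 cpm, at a log2 fold change of 0.43 (standard error 0.454). miR-133a-3p overlapped between the arms, at 67933 and 93926 cpm against 70519 and 118963 cpm.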

How the data were processed

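Small RNA libraries were made with the TruSeq kit and sequenced on an Illumina HiSeq by the authors, who demultiplexed the reads with CASAVA v1.8, trimmed them, discarded those under 18 bases, mapped them to rn4 and to miRBase v18 with miRDeep2 and deposited whole read counts per precursor, without normalization. A read may count at several precursors, so the largest count of each mature miRNA was taken (the sum was an alternative). Another file, 1 for all samples, has 20 value columns whose names match no label, and it was left aside. Groups were taken from the labels.

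From the counts, TMM factors, a quasi-likelihood fit of all 10 libraries with a mean per group, and fold changes with a prior count of 2 were obtained in R 4.3.3 with edgeR 4.0.16. limma 3.58.1 and DESeq2 1.42.0 served as alternatives, beside other scalings, filters, a replicate block and the leaving out of libraries. The fit was tested on simulated data. With 2 libraries against 2 an exact two-sided permutation test cannot go below p = 0.333 and was not used. Figures were drawn with matplotlib 3.10.9.

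The members and lists were chosen with earlier results of these data known. Named miRNAs are those past the thresholds, the one the study lists, in each list the most abundant member and any without overlap and over 2-fold between means, the 5 most abundant of all, and those among the miRNAs left out that were higher or lower in both libraries of an arm. Others, among them miR-34a-5p, miR-101a-3p, miR-381-3p, miR-483 and miR-1-3p, share a seed, locus or split with one of these, or belong to a list with a named member, and were chosen after their values were seen.

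Same-numbered libraries of the arms deviated in opposite directions (r = -0.30 across miRNAs, and -0.54 to 0.59 over all pairs of groups), so the numbers do not pair them. The counts of the libraries of a group differed far beyond sampling noise, so none was a duplicate.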

Additional observations from a re-analysis of the deposited data

Results flagged for a closer look

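Of the 364 miRNAs left out of the test, which had to reach 1 cpm in 5 or more libraries, 6 had more than 3 counts in both MS_E libraries, levels in cpm above both PLA_E libraries, and a mean more than 2-fold higher. These are values without a test. miR-34b-3p, made from the transcript that also gives miR-34c, had a mean of 20.7 cpm in MS_E, from 260 and 8 counts against 4 and 2 in PLA_E. miR-429 of the miR-200 family had a mean of 7.58 cpm, from 85 and 13 counts against 3 and 2. miR-296-5p had 2.56 cpm, from 24 and 9 counts against 4 and 1. miR-433-5p of the Dlk1-Dio3 cluster had 1.94 cpm, from 8 and 17 counts against 5 and 2. miR-20b-5p, a paralog of miR-17, had 1.78 cpm, from 19 and 4 counts against 4 and 0. miR-501-5p had 1.01 cpm, from 7 and 6 counts against 1 and 2. In miR-34b-3p, miR-429, miR-296-5p and miR-20b-5p most of the MS_E counts came from replicate 1. In the other direction only miR-383-5p met the same conditions, with 1 and 4 counts in MS_E against 8 and 4 in PLA_E.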

How the results depend on the processing

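The number of differential miRNAs, 14 with 11 higher and 3 lower in MS_E, depended on the fit. limma-voom gave 9 with 5 higher, DESeq2 19 with 5 lower, and DESeq2's size factors in edgeR 14 with 5 lower. Library size only gave 12, of which 5 were higher and 7 lower. Without a filter, on 579 miRNAs, it was 29 with 25 higher, and with a mean of at least 100 counts, on 184 miRNAs, 8 with 7 higher and 1 lower. The miR-1-3p division as a term gave 22 with 7 lower. With each library left out in turn the number was between 7 and 35, with 3 to 21 higher and 1 to 14 lower. The number at an adjusted p under 0.05 was 0 in edgeR on all libraries, 2 in DESeq2 and between 0 and 5 with a library left out, and that of the interaction was between 0 and 3, with the highest numbers all without MS_E replicate 2. Of the alternatives chosen after the data were seen, limma-voom on only the 4 libraries gave 2, 1 higher and 1 lower, and a crossed pairing of the replicates gave 10 with 7 higher, miR-10b-5p among them. The replicate block gave 12, of which 11 were among the 14, and the replicate numbers do not pair the libraries. Without MS_E replicate 1, the log2 fold changes of miR-141-3p, miR-34c-5p and miR-449a-5p reversed to -0.32, -0.78 and -0.91, and without MS_E replicate 2 they were 5.59, 7.0001 and 6.45. The cause of the other changes was not tested. Of 1413 further values of 110 miRNAs and lists, 1230 kept their direction and their side of the threshold or moved by less than the spread between libraries, 92 no longer passed, 27 newly passed and 61 moved further. With 2 libraries per arm a median standard error of 0.641 on the log2 scale limits what could be detected, and when a single library of an arm is left its spread is assumed to be that of the other groups.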
